A study of Mus musculus with 15 samples.

Results

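The genes described here are 9 genes of catecholamine synthesis and storage in the mouse adrenal gland: Th, Gch1, Ddc, Dbh, Cyb561, Pnmt, Slc18a1, Slc18a2 and Slc6a2. They were taken by gene symbol, and each was read from the 1 Affymetrix probe set annotated to it. The whole table held 32736 probe sets, from which 21439 genes were kept with 1 probe set each. The probe sets were 17498171 for Th, 17305748 for Gch1, 17260644 for Ddc, 17368499 for Dbh, 17270703 for Cyb561, 17255992 for Pnmt, 17509780 for Slc18a1, 17360823 for Slc18a2 and 17503866 for Slc6a2. All animals were male wild type C57BL/6J mice, given as 6 weeks old in the labels of every array, and whole adrenal glands were used. The control group (n = 4 arrays) came from mice before any treatment. The other 3 groups had received dexamethasone, a synthetic glucocorticoid that suppresses pituitary ACTH, in the drinking water for 14 days. Their glands were taken at withdrawal, the end of those 14 days (n = 3), or at day 3 (n = 4) or day 7 (n = 4) after it. The controls were collected before treatment, so the effect of the drug and that of the elapsed time cannot be told apart in any comparison with them. The labels call the arrays biological replicates, and the number of animals or glands behind each array is not given in the sources used here. All levels below are log2 values made by robust multi-array averaging (RMA), so a difference of 1 is a doubling of signal.

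Chromaffin cells of the adrenal medulla make adrenaline from tyrosine. Tyrosine hydroxylase (Th), the rate-limiting enzyme, makes L-DOPA with the cofactor tetrahydrobiopterin, aromatic L-amino acid decarboxylase (Ddc) makes dopamine, and dopamine beta-hydroxylase (Dbh) makes noradrenaline inside the granules. Phenylethanolamine N-methyltransferase (Pnmt) then makes adrenaline, and its expression is known to depend on the high glucocorticoid concentration that reaches the medulla from the surrounding cortex.

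The gland contained both compartments in every group. Among markers of the medulla outside the gene set, the granule proteins Chga and Chgb had control means of 10.52 and 10.86, and among markers of the cortex the side-chain cleavage enzyme Cyp11a1 had a control mean of 10.82. Over the withdrawal, day 3 and day 7 groups the means ran from 10.5 to 10.91 for Chga, 10.83 to 10.85 for Chgb and 10.37 to 10.76 for Cyp11a1. Array medians ran from 1.55 to 1.64, replicate arrays of a group correlated at 0.987 to 0.991 on average, and 0 pairs of arrays held identical values. In whole-gland RNA, fewer cells of a type and less RNA per cell cannot be told apart.

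Start regions of some of the genes are shown because textbook regulators of catecholamine enzymes can act there. RefSeq promoter windows (GRCm38.p6, from 250 bases before to 50 bases after an annotated start) were at hand for 5 of the 9 genes, as 6 windows, because Ddc has 2 annotated starts. Pnmt, the glucocorticoid-dependent step, had no window, and nor did Slc18a1, Cyb561 and Slc6a2. Sites of these genes, and sites farther upstream than 250 bases in any gene, were therefore not searched. Both strands were searched for the glucocorticoid receptor hexamer AGAACA, the cAMP response element TGACGTCA, the EGR motif GCGGGGGCG, the GC box GGGCGG and the AP-1 motif TGANTCA. Capitals below mark matches, and the sequences run 5′ to 3′ on the strand of the gene. They are Th at chr7:142899946-142900245 on the minus strand, Dbh at chr2:27165257-27165556 on the plus strand, and the upstream and downstream starts of Ddc at chr11:11898095-11898394 and chr11:11890359-11890658, both on the minus strand.
Th: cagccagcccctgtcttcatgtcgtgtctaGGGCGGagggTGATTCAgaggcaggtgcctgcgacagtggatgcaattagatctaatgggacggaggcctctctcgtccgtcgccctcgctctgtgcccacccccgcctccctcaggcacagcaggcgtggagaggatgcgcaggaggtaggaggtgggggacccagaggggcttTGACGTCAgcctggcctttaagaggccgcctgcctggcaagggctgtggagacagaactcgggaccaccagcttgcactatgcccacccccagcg
Dbh: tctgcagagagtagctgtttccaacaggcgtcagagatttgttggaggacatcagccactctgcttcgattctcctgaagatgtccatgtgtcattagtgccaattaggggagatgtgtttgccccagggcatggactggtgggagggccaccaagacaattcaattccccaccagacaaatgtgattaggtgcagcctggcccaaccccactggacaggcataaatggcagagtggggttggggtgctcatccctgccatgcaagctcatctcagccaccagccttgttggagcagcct
Ddc upstream start: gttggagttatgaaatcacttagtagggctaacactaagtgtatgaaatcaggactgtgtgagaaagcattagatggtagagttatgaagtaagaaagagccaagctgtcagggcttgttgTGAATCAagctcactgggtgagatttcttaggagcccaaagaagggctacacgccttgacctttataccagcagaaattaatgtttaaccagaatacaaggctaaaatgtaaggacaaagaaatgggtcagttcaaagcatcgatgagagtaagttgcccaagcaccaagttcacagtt
Ddc downstream start: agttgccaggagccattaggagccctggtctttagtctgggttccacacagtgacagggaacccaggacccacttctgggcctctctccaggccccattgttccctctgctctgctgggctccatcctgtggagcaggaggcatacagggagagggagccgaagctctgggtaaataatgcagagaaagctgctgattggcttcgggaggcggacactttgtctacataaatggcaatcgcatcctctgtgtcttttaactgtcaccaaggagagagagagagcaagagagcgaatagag
The Th window held 3 matches, a GC box that begins 220 bases before the start, an AP-1 motif at 210 bases and a cAMP response element at 45 bases. The Dbh window and the downstream Ddc window held 0 matches, and the upstream Ddc window held 1 AP-1 match at 129 bases before the start. Of the windows not printed, that of Slc18a2 held 4 matches (a receptor hexamer on the minus strand at 185 bases, GC boxes at 59 and 27 bases and a cAMP response element at 4 bases) and that of Gch1 held 2 GC boxes, at 118 and 105 bases. Over all 32851 windows of the same length, 19.0% held the receptor hexamer, 1.8% the cAMP response element, 2.9% the EGR motif, 35.7% the GC box and 7.8% the AP-1 motif, and no 2 matches in the windows of these genes overlapped. A match describes the letters of the window and is not evidence of binding.

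At withdrawal, Ddc and Cyb561 rose and the other 7 genes did not pass the test. Ddc, the decarboxylase, was 1.56-fold above control and Cyb561, the granule membrane cytochrome that carries electrons inward to regenerate the ascorbate used by Dbh, was 1.59-fold above. By day 7 Ddc had fallen back, 0.67 log2 below withdrawal. No gene of the set passed the test in the other 4 comparisons. Pnmt, the glucocorticoid-dependent step, passed in none of the 6 comparisons, and it had one of the widest spreads between arrays of its group.

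The withdrawal comparison called 2 of the 9 genes, both higher, where 2.49% of all genes were called higher (limma over all genes, Benjamini-Hochberg adjusted p under 0.05). Without adjustment 3 of 9 had p under 0.05, beside 17.0% of all genes, and the arrays of withdrawal and control did not overlap for 3 of 9, beside 15.1% of all genes. The mean was higher at withdrawal for 8 of 9, and the median difference of the 9 was 0.36, beside -0.01 over all genes. Gch1 was the gene with a lower mean.

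**Figure D1:**
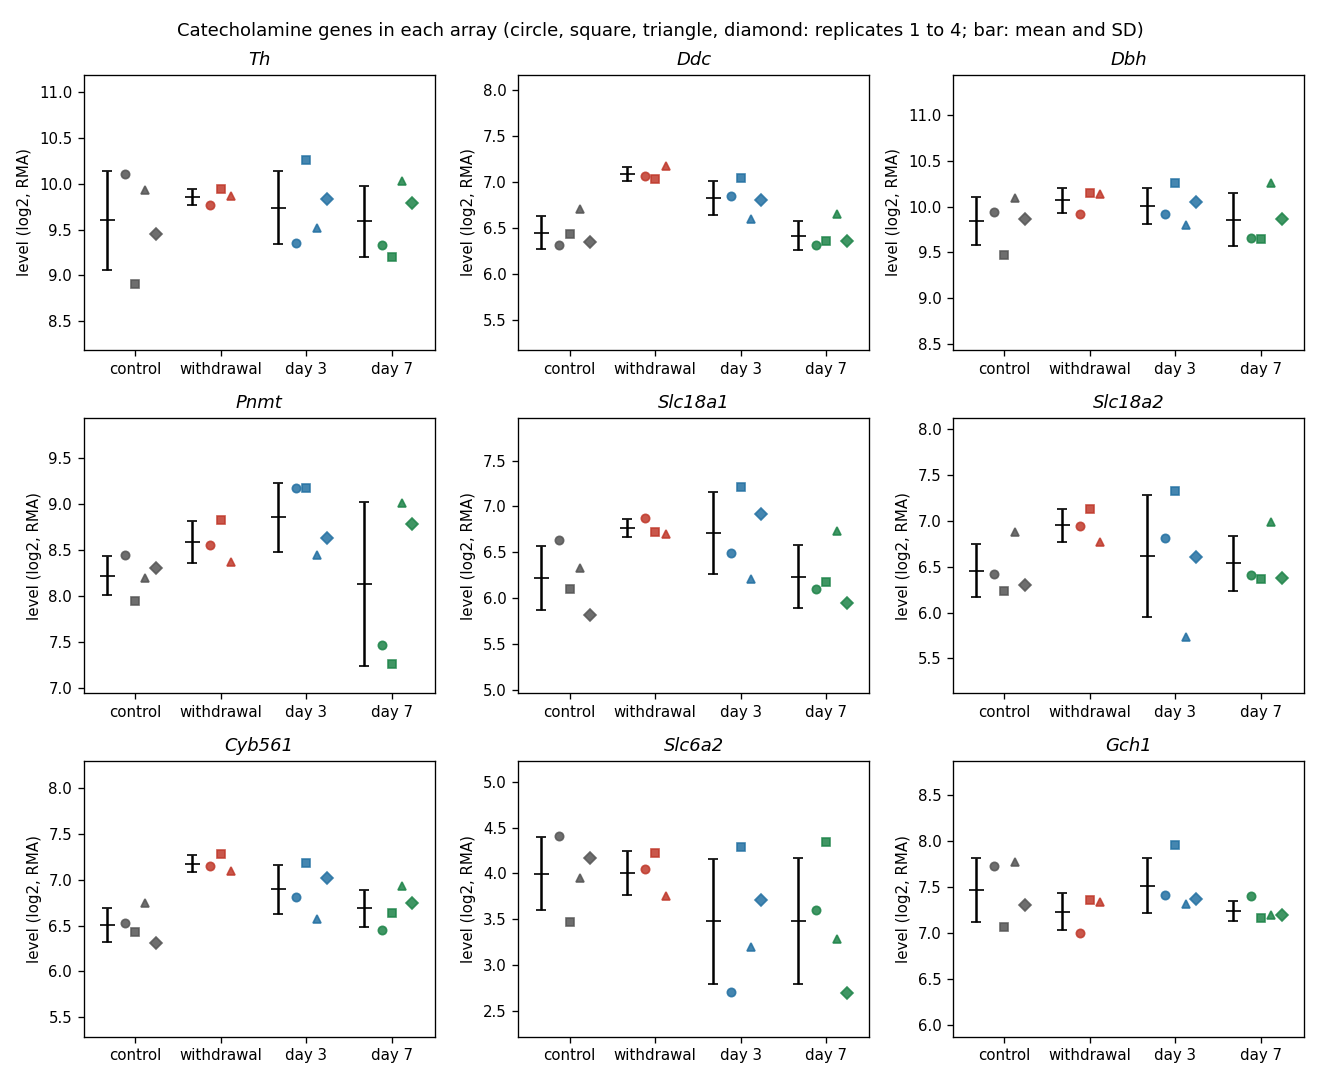
Log2 RMA level (vertical axis) of each of the 9 genes on each of the 15 arrays (points), by group along the horizontal axis; bars are group means with SD. For Ddc and Cyb561 all 3 withdrawal arrays lie above all 4 control arrays, and for Pnmt the day 7 arrays run from 7.26 to 9.01.

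Ddc measured 6.32, 6.43, 6.71 and 6.34 in the 4 control arrays and 7.06, 7.03 and 7.17 in the 3 withdrawal arrays. It measured 6.85, 7.04, 6.60 and 6.80 at day 3 and 6.32, 6.35, 6.65 and 6.35 at day 7. Every withdrawal array was above every control and every day 7 array, while day 3 overlapped control and withdrawal. The withdrawal mean exceeded control by 0.64 ± 0.13 (SE; 95% interval 0.37 to 0.91; limma adjusted p = 0.00932). The day 7 mean fell by 0.67 ± 0.13 from withdrawal (95% interval of the difference -0.94 to -0.40; limma adjusted p = 0.0122). In order of mean level, day 7 (6.42 ± 0.15, SD) and control (6.45 ± 0.18) came lowest, then day 3 (6.82 ± 0.18) and withdrawal (7.09 ± 0.08). None of the neighbours in this order differed past the threshold, and the day 7 minus control difference was -0.03, with a 95% interval from -0.28 to 0.22.

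Cyb561 measured 6.53, 6.42, 6.74 and 6.31 in the control arrays and 7.15, 7.27 and 7.10 at withdrawal. It measured 6.81, 7.18, 6.57 and 7.02 at day 3 and 6.45, 6.63, 6.93 and 6.74 at day 7. All withdrawal arrays lay above all control and all day 7 arrays, and day 3 overlapped every other group. The withdrawal minus control difference was 0.67 ± 0.15 (SE; 95% interval 0.35 to 0.99; limma adjusted p = 0.0194). The day 7 minus withdrawal difference was -0.48 ± 0.15 (95% interval -0.81 to -0.16) and did not pass the test over all genes (limma adjusted p = 0.13). The means ran in the order control (6.50 ± 0.19, SD), day 7 (6.69 ± 0.20), day 3 (6.89 ± 0.27) and withdrawal (7.17 ± 0.09), and neighbours did not differ past the threshold. The Cyb561 call at withdrawal was lost without control replicate 4 (0.61, limma adjusted p = 0.0568), without withdrawal replicate 1 (0.68, adjusted p = 0.0553) and without withdrawal replicate 2 (0.62, adjusted p = 0.0909).

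Chromaffin markers outside the gene set moved at withdrawal against control too. The array mean of the 15 measured chromaffin markers (of 16 listed, none of them in the gene set) ran from 7.49 to 7.99 in control and from 8.06 to 8.22 at withdrawal, and their summed level (log2 of the summed signal) ran from 12.93 to 13.30 and from 13.35 to 13.44. Of those markers 2 rose, the granin-like protease inhibitor Pcsk1n (0.74 ± 0.12, limma adjusted p = 0.00308) and the vesicle calcium sensor Syt1 (0.89 ± 0.22, adjusted p = 0.0357). Without adjustment 10 of 15 had p under 0.05, beside 17.0% of all genes. A higher mean was found for 12 of 15, while Vgf (-1.05 ± 0.71), Pam (-0.02 ± 0.12) and Chgb (-0.01 ± 0.08) had a lower one. With the array mean of these markers as a covariate, an alternative chosen after the data were seen, all 3 calls in the gene set were lost. Ddc at withdrawal was then 0.48 above control (limma adjusted p = 0.087), Cyb561 0.42 above control (adjusted p = 0.144), and Ddc at day 7 -0.51 against withdrawal (adjusted p = 0.111). Calls were lost over all genes too. At withdrawal against control 362 genes were called with the covariate and 921 without it, and at day 7 against withdrawal 152 and 404. Control and withdrawal arrays did not overlap in the marker mean, so the covariate and the group cannot be fully told apart.

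The cortex moved the other way at withdrawal. Of 8 cortex markers 5 fell and 0 rose, among them the scavenger receptor Scarb1 (-1.74 ± 0.17, limma adjusted p = 6.12e-05) and the 21-hydroxylase Cyp21a1 (-1.26 ± 0.09, adjusted p = 7.6e-06). The summed cortex level ran from 12.94 to 12.99 in control, 12.30 to 12.45 at withdrawal, 12.83 to 12.98 at day 3 and 12.87 to 12.97 at day 7. All 6 macrophage markers rose at withdrawal, led by Gpnmb (7.63 ± 0.82, adjusted p = 0.000118) and with Cd68 (2.29 ± 0.30, adjusted p = 0.000471), and the summed macrophage level ran from 7.52 to 7.70 in control, 9.97 to 10.82 at withdrawal, 8.96 to 10.11 at day 3 and 7.96 to 9.95 at day 7. Of 6 endothelial markers Kdr fell (-0.77 ± 0.17, adjusted p = 0.016). All 6 had a lower mean, 5 with an unadjusted p under 0.05, and their summed level ran from 10.15 to 10.29 in control and from 9.83 to 9.90 at withdrawal. No Schwann or glial marker (6 of 8 measured) and no sympathetic neuron marker (5 of 6 measured) passed the test by limma, with 2 and 1 at an unadjusted p under 0.05. All 6 Schwann markers had a higher mean at withdrawal, from 0.08 for Sox10 (1.34 in control) to 1.01 ± 0.30 for Cdh19 (3.09 in control, adjusted p = 0.0742), and their summed level ran from 5.28 to 5.74 in control and from 5.80 to 6.40 at withdrawal. The part of cortex, macrophage, endothelial and glial RNA in the rise of Ddc and Cyb561 was not tested.

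**Figure D2:**
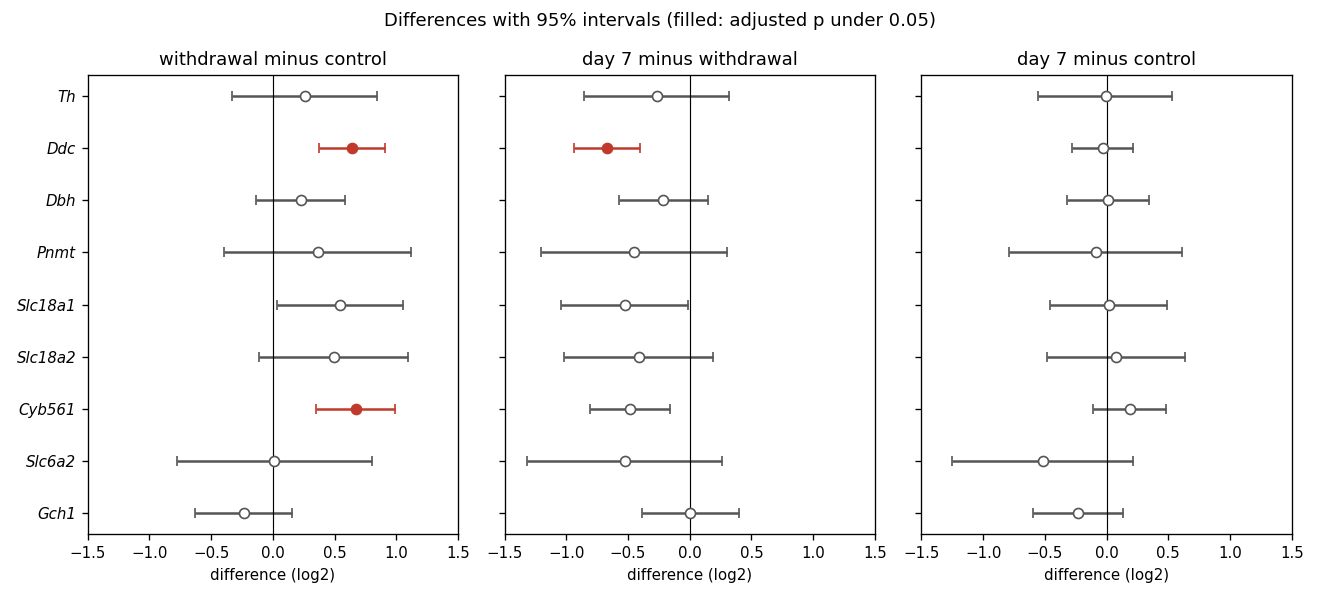
Difference of group means in log2 units (horizontal axis) with 95% intervals from limma for each of the 9 genes in 3 panels (withdrawal minus control, day 7 minus withdrawal, day 7 minus control); filled points have an adjusted p under 0.05. The intervals of Ddc (0.37 to 0.91) and Cyb561 (0.35 to 0.99) lie above 0 for withdrawal against control, and that of Pnmt is among the widest.

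Th, the first enzyme, measured 10.11, 8.91, 9.93 and 9.45 in the control arrays and 9.77, 9.94 and 9.86 at withdrawal. It measured 9.36, 10.25, 9.52 and 9.83 at day 3 and 9.33, 9.20, 10.03 and 9.79 at day 7. All 4 groups overlapped, and the control arrays alone spanned 1.20. The withdrawal minus control difference was 0.26 ± 0.28, with a 95% interval from -0.33 to 0.85, and that of day 7 minus control was -0.01, from -0.55 to 0.53. The difference at withdrawal was 0.03 without control replicate 2 and 0.43 without control replicate 1. The means ran from 9.59 at day 7 to 9.86 at withdrawal, and no neighbours differed past the threshold.

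Gch1, GTP cyclohydrolase, makes the first intermediate of the tetrahydrobiopterin that Th needs. Its arrays ran from 7.06 to 7.78 in control, 7.00 to 7.36 at withdrawal, 7.31 to 7.96 at day 3 and 7.16 to 7.40 at day 7. All 4 groups overlapped, and Gch1 had the sign opposite to the other 8 genes at withdrawal (-0.24 ± 0.18, 95% interval -0.63 to 0.16, limma adjusted p = 0.579). Its means ran from 7.23 at withdrawal to 7.51 at day 3, with no neighbours different past the threshold. Among 6 measured of 7 listed further genes of the cofactor cycle, Pcbd1, which dehydrates the used cofactor for recycling, rose at withdrawal from a mean of 7.22 to 8.01 (0.79 ± 0.19, adjusted p = 0.0276), and the other 5 did not pass. The median difference of those 6 genes was -0.01.

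Dbh, the granule enzyme, measured 9.94, 9.47, 10.10 and 9.87 in control and 9.91, 10.15 and 10.14 at withdrawal. It measured 9.92, 10.26, 9.80 and 10.05 at day 3 and 9.65, 9.65, 10.26 and 9.86 at day 7. The groups overlapped throughout, the withdrawal minus control difference was 0.23 ± 0.17 (95% interval -0.14 to 0.59), and that of day 7 minus control was 0.01 (95% interval -0.32 to 0.35). The means ran from 9.84 in control to 10.07 at withdrawal, with no neighbours different past the threshold. Dbh needs copper and ascorbate, and of 6 genes of copper and ascorbate supply the ascorbate transporter Slc23a2 fell at withdrawal from 6.74 to 6.17 (-0.57 ± 0.15, limma adjusted p = 0.0384), while the other 5 did not pass. The median difference of these 6 was -0.14.

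Pnmt measured 8.44, 7.95, 8.19 and 8.30 in control and 8.56, 8.83 and 8.37 at withdrawal. It measured 9.17, 9.18, 8.44 and 8.63 at day 3 and 7.47, 7.26, 9.01 and 8.79 at day 7. The lowest day 3 array was level with the highest control array, and at day 7 replicates 1 and 2 lay below every control array while replicates 3 and 4 lay above every control array. The means ran in the order day 7 (8.13 ± 0.90, SD), control (8.22 ± 0.21), withdrawal (8.58 ± 0.23) and day 3 (8.86 ± 0.38). No neighbours in that order differed past the threshold.

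The withdrawal minus control difference of Pnmt was 0.36 ± 0.35 (SE; 95% interval -0.39 to 1.12; limma adjusted p = 0.678). The interval extends from a fall to a rise, so this fit resolved neither after 14 days of dexamethasone. Its SE is pooled over all 4 groups, and Pnmt had an SD of 0.90 at day 7, beside 0.21 in control and 0.23 at withdrawal. With only the control and withdrawal arrays in the fit, the difference was again 0.36, with a smaller SE of 0.15. It did not pass the threshold there either. In the fit of all groups, leaving out single arrays moved the difference between 0.24 (without withdrawal replicate 2) and 0.47 (without withdrawal replicate 3). At day 3 Pnmt was 0.64 ± 0.33 above control (95% interval -0.06 to 1.34; adjusted p = 0.553). From day 3 to day 7 the difference was -0.73 ± 0.33 (95% interval -1.43 to -0.03), with an unadjusted p of 0.0433 and a limma adjusted p of 0.692. It was -0.43 without day 7 replicate 2 and -1.02 without day 7 replicate 3. At day 7 the difference from control was -0.09 ± 0.33 (95% interval -0.79 to 0.61), and it ran from -0.38 to 0.20 as single arrays were left out.

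Pnmt was next set against Dbh within each array, which removes what moves both genes alike and leaves only whether they changed unequally. Pnmt minus Dbh was -1.50, -1.53, -1.91 and -1.57 in control and -1.36, -1.32 and -1.77 at withdrawal. It was -0.74, -1.08, -1.36 and -1.42 at day 3 and -2.19, -2.39, -1.25 and -1.08 at day 7. All 4 day 3 arrays lay above all 4 control arrays, by 0.47 in the mean, which gave the smallest p that 4 against 4 arrays allow (two-sided exact permutation test, p = 0.0286, 0.171 after adjustment over the 6 comparisons). The other 5 comparisons gave exact permutation p from 0.257 to 0.771. With Th in place of Dbh the day 3 minus control difference was 0.50 (exact permutation adjusted p = 0.571).

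**Figure D3:**
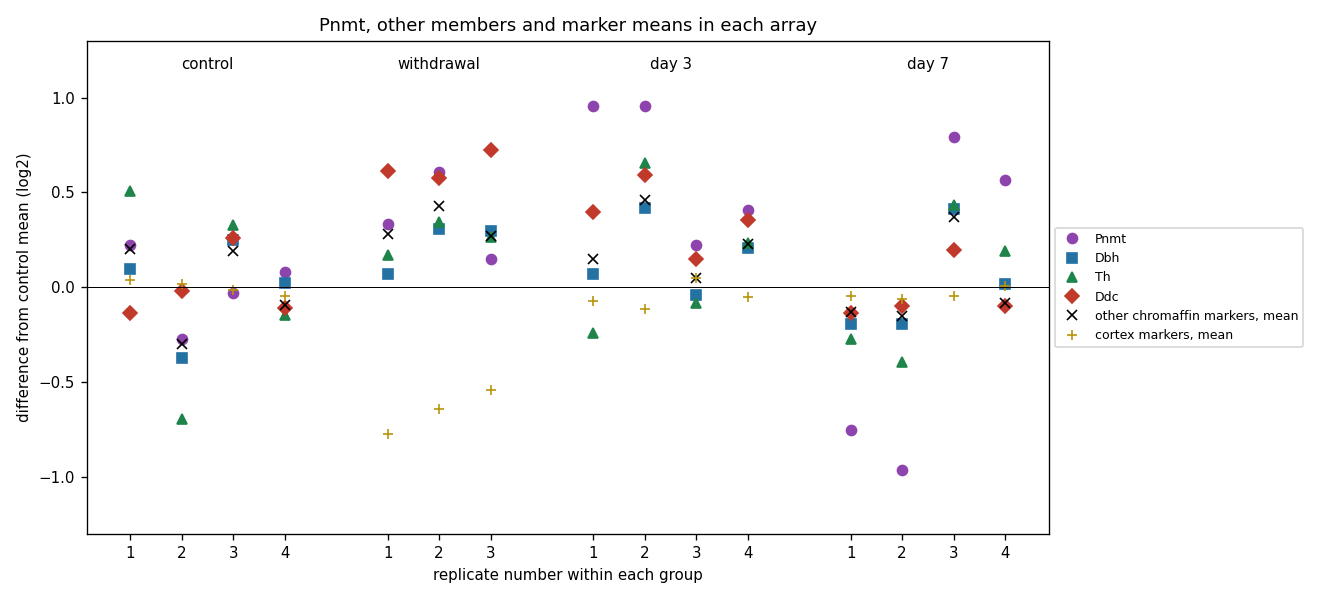
Pnmt, Dbh, Th and Ddc and the array means of 15 chromaffin and 8 cortex markers, each as its log2 difference from its control mean (vertical axis), on every array by replicate number within group (horizontal axis). At day 7 Pnmt lies below its control mean in replicates 1 and 2 (levels 7.47 and 7.26) and above it in replicates 3 and 4 (9.01 and 8.79), and the cortex mean is low in the 3 withdrawal arrays.

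The day 7 arrays low in Pnmt, replicates 1 and 2, had chromaffin marker means of 7.66 and 7.64, and those high in Pnmt, replicates 3 and 4, had 8.16 and 7.71. Replicate 4 was thus near replicates 1 and 2 in the markers but not in Pnmt. With the marker mean as a covariate, the Pnmt differences were -0.17 for withdrawal minus control, 0.27 for day 3 minus control and 0.08 for day 7 minus withdrawal, and the limma adjusted p ran from 0.565 to 0.98 over the 6 comparisons. A list of 12 genes was taken as regulators of the Pnmt or Th promoter, and that role was not tested for any of them. Of these, Max rose at withdrawal (0.36 ± 0.08, limma adjusted p = 0.0231) and 11 did not pass. Among those 11, the glucocorticoid receptor Nr3c1 had means of 5.50 in control and 5.90 at withdrawal (0.41 ± 0.12, adjusted p = 0.085), and the immediate early factor Egr1 6.37 and 7.29 (0.91 ± 0.45, adjusted p = 0.323). The largest difference of the 12 was that of Nr4a2 (1.67 ± 0.49, limma adjusted p = 0.0698). A higher mean at withdrawal was found for 11 of the 12, and 3 had an unadjusted p under 0.05, beside 17.0% of all genes. No gene of methyl donor supply, the source of the methyl group that Pnmt transfers, passed the test by limma (3 measured of 4 listed, 0 at an unadjusted p under 0.05, median 0.16).

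The vesicular monoamine transporters load catecholamine into granules. Slc18a1, the form typical of endocrine cells, measured 6.64, 6.10, 6.33 and 5.81 in control and 6.88, 6.72 and 6.70 at withdrawal. It measured 6.50, 7.22, 6.20 and 6.92 at day 3 and 6.10, 6.17, 6.73 and 5.94 at day 7. The withdrawal arrays all lay above the control arrays, the nearest pair being 6.70 and 6.64, while day 3 and day 7 overlapped control. The withdrawal minus control difference was 0.54 ± 0.24 (95% interval 0.03 to 1.06), with an unadjusted p of 0.0389 and a limma adjusted p of 0.259. Control (6.22) and day 7 (6.24) had nearly equal means, day 3 (6.71) and withdrawal (6.76) lay above, and no neighbours differed past the threshold.

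Slc18a2, the form typical of neurons that is present in chromaffin cells too, ran from 6.23 to 6.88 in control, 6.77 to 7.13 at withdrawal, 5.73 to 7.33 at day 3 and 6.37 to 6.99 at day 7. The groups overlapped, with both the lowest and the highest value of all arrays at day 3. The withdrawal minus control difference was 0.49 ± 0.28 (95% interval -0.11 to 1.10, limma adjusted p = 0.414), and the means ran from 6.46 in control to 6.95 at withdrawal without neighbours that differed past the threshold. Slc6a2, the noradrenaline transporter of the cell membrane, ran from 3.47 to 4.41 in control, 3.75 to 4.23 at withdrawal, 2.71 to 4.29 at day 3 and 2.70 to 4.34 at day 7. The groups overlapped, the withdrawal minus control difference was 0.01 ± 0.37 (95% interval -0.78 to 0.80), and the means ran from 3.48 at day 3 and day 7 to 4.01 at withdrawal. Of 6 measured of 8 listed further genes of catecholamine breakdown and uptake, the monoamine oxidase Maob rose at withdrawal from 5.62 to 6.47 (0.85 ± 0.23, adjusted p = 0.0465), the other 5 did not pass, and the median of all 6 was -0.04.

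Recovery was read from both ends, against withdrawal and against control, and these comparisons share arrays with the first. From withdrawal to day 3, 0 of 9 genes passed limma's test, beside 2.25% of all genes. Without adjustment 0 of 9 had p under 0.05, beside 13.9% of all genes, and 0 of 9 had groups that did not overlap, beside 12.1%. Ddc was -0.27 ± 0.13 (95% interval -0.53 to 0.00) and Cyb561 -0.28 ± 0.15 (95% interval -0.60 to 0.04) at day 3 against withdrawal, and the median of the 9 was -0.12. From withdrawal to day 7, 1 of 9 passed, Ddc, beside 0.905% of all genes called lower. Without adjustment 3 of 9 (Ddc, Cyb561 and Slc18a1) had p under 0.05, beside 13.5% of all genes, and 2 of 9 (Ddc and Cyb561) had groups that did not overlap, beside 12.3%. Of the 9 genes 8 had a lower mean at day 7 than at withdrawal, and the median was -0.45, beside 0.00 over all genes. Against withdrawal, chromaffin marker Pcsk1n fell by day 7 (-0.56 ± 0.12, limma adjusted p = 0.0311), 14 of 15 chromaffin markers had a lower mean, and 5 of 8 cortex markers rose. At day 3 against withdrawal 4 of 8 cortex markers and the endothelial marker Pecam1 (0.39 ± 0.08, adjusted p = 0.024) rose and 4 of 6 macrophage markers fell, and at day 7 Kdr (0.75 ± 0.17, adjusted p = 0.033) rose and 5 of 6 macrophage markers fell. The part of the cortex, endothelial and macrophage markers in the Ddc difference was not tested; the value with the chromaffin marker mean as a covariate is the -0.51 given above.

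Against control, 0 of 9 genes passed limma's test at day 3, beside 0.131% of all genes. Without adjustment 3 of 9 (Ddc, Slc18a1 and Cyb561) had p under 0.05, beside 10.0% of all genes, and 0 of 9 had groups that did not overlap, beside 5.2%. The differences were 0.37 ± 0.12 for Ddc (95% interval 0.13 to 0.62, adjusted p = 0.247), 0.39 ± 0.14 for Cyb561 (0.10 to 0.69, adjusted p = 0.329) and 0.49 ± 0.22 for Slc18a1 (0.02 to 0.96, adjusted p = 0.478). At day 7 against control 0 of 9 passed limma's test, beside 0.0187% of all genes. Without adjustment 0 of 9 had p under 0.05, beside 5.95% of all genes, and 0 of 9 had groups that did not overlap, beside 3.15%. The day 7 minus control differences ran from -0.52 for Slc6a2 (95% interval -1.25 to 0.22) to 0.19 for Cyb561 (-0.11 to 0.48), with a median of -0.01. Between day 3 and day 7, 0 of 9 passed limma's test, beside 0.0% of all genes. Without adjustment 2 of 9 (Ddc, -0.41 ± 0.12, and Pnmt) had p under 0.05, beside 7.07% of all genes, and 0 of 9 had groups that did not overlap, beside 3.56%.

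Further genes of chromaffin identity and input were read from the same fit. Of 7 measured of 10 listed transcription factors of chromaffin development, Gata3 (1.09 ± 0.14, limma adjusted p = 0.000502) and Isl1 (1.20 ± 0.29, adjusted p = 0.0299) rose at withdrawal, all 7 had a higher mean, and the median was 0.70. Gata3, a zinc finger factor needed for sympathoadrenal development, had a mean of 4.98 in control and 6.07 at withdrawal, then 5.30 and 5.10 on days 3 and 7. It fell by day 3 (-0.77 ± 0.14, adjusted p = 0.0118) and by day 7 (-0.97 ± 0.14, adjusted p = 0.00282) from withdrawal. Of 7 measured of 8 listed receptors for input to the chromaffin cell, the PACAP receptor Adcyap1r1 rose at withdrawal from 5.08 to 5.77 (0.69 ± 0.18, adjusted p = 0.0397), the other 6 did not pass, and the median of all 7 was 0.59. Against control at day 3 and day 7, and between those days, Gpnmb was the one gene of all these lists to pass, higher at day 3 (6.71 ± 0.76, adjusted p = 0.00307) and at day 7 (5.28 ± 0.76, adjusted p = 0.0362). In the 5 comparisons other than withdrawal against control, no gene of the cofactor, breakdown, copper, promoter regulator, input receptor or methyl donor lists passed limma's test. Of their 40 genes, 11 had an unadjusted p under 0.05 at day 3 against withdrawal, beside 13.9% of all genes. At day 7 against withdrawal 8 did, beside 13.5%. Against control 5 did at day 3, beside 10.0%, and 3 at day 7, beside 5.95%. Between day 3 and day 7 it was 1, beside 7.07%.

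The 9 genes differed in how much they varied between arrays of a group. The pooled SD within groups was 0.41 for Th, larger than that of 99.4% of the 158 genes within 0.5 log2 of its level, and 0.53 for Pnmt, larger than that of 99.3% of 554 such genes. For Ddc it was 0.16, larger than that of 52.7% of 1875 genes, and for Cyb561 0.20, larger than that of 78.7%. Slc6a2 had the largest SD of the 9, 0.55 (95.6%), and the other 4 ran from 0.24 (Dbh, 94.7%) to 0.42 (Slc18a2, 98.2%). Ddc and Cyb561, which passed the test, had the smallest spread of the 9 and also the largest differences at withdrawal (0.64 and 0.67). The point differences of Slc18a1 (0.54) and Slc18a2 (0.49) at withdrawal came with SEs of 0.24 and 0.28. The part of the spread in which genes passed was not tested.

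Much of the spread was shared between genes of the set. Over the 15 arrays, which share hybridisation and normalization, Th and Dbh had a Pearson r of 0.89, and 0.89 again after each group's mean was removed. Ddc and Cyb561 had 0.89 and 0.79, and Slc18a2 and Cyb561 0.79 and 0.85. Pnmt had 0.71 and 0.68 with Dbh and 0.62 and 0.62 with Th. Slc6a2 had -0.30 and -0.34 with Pnmt, the negative pair of the set. With the other 7 it had 0.10 to 0.34 in level and 0.05 to 0.47 after group means were removed, the highest of these with Slc18a1 (0.47) and Gch1 (0.46). These correlations describe the arrays and carry no test.

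**Figure D4:**
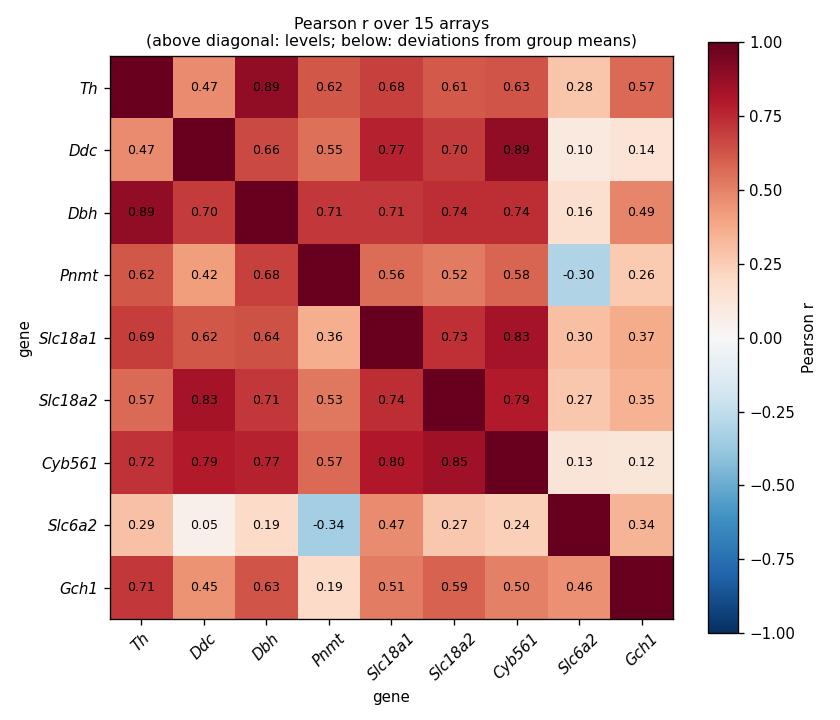
Pearson r between each pair of the 9 genes over 15 arrays; the upper triangle uses log2 levels and the lower triangle deviations from the group means, on a colour scale from -1 to 1. Th with Dbh has 0.89 in both triangles, and Slc6a2 with Pnmt has -0.30 above and -0.34 below the diagonal.

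Outside the set, the genes whose levels followed these most closely were found by Pearson r over the same 15 arrays among 8474 genes with a group mean of at least 4. For Pnmt they were Edn3 (0.849), Dtwd1 (0.837), Tceal9 (0.835), Phyhipl (0.828) and Snrpd1 (0.80). At day 7 Edn3, which encodes an endothelin peptide, measured 4.56, 4.74, 5.22 and 5.10, and Phyhipl 4.40, 4.34, 5.41 and 5.34. Both were low in the arrays where Pnmt was low. They were picked by their correlation with Pnmt over these same arrays, so this is no separate evidence on the day 7 split. For Th they were Npy (0.925), Ptprn (0.921), Slc38a11 (0.906), Slc31a1 (0.884) and Shisal2a (0.865). For Dbh they were Npy (0.945), Slc38a11 (0.918), Gal (0.91), Ptprn (0.91) and Dlk1 (0.895). Npy, which encodes neuropeptide Y, had means of 11.15 before treatment, 11.27 at its end and 11.25 and 11.10 on days 3 and 7, and did not pass the test at withdrawal (0.12 ± 0.15, limma adjusted p = 0.771).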

How the data were processed

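Total RNA from whole adrenal glands was labelled as biotinylated cRNA and hybridised to 15 one-colour Affymetrix arrays, per the labels. The deposited values are log2 expression values that the authors made by RMA (oligo), per the submitters' processing notes; the sources used here give no versions, annotation or filter. They were used as deposited, and 0 columns belonged to other samples. Of 32736 probe sets, 22399 had 1 gene symbol, 1607 several and 8730 none; 22261 Entrez identifiers matched the reference table and 138 did not. Where a gene had several probe sets (807 genes), the one with the highest mean was kept, which left 21439 genes.

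All genes were fitted with limma 3.58.1 in R 4.3.3 (lmFit and eBayes, 4 groups in 1 model) and p-values were adjusted by Benjamini-Hochberg within each of 6 comparisons, with a threshold of 0.05. Errors of differences are SEs and intervals are 95% model intervals. Fold is 2 to the power of the difference in log2. Pnmt minus Dbh was tested by two-sided exact permutation over arrays. The number of arrays limits the precision. The fit was tested on simulated data.

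The members and lists were chosen with earlier results of these data known. Named were the 9 members, up to 4 genes past the threshold of each pathway or cell marker list, and the 5 genes most correlated with Pnmt, Th and Dbh. Chga, Chgb, Pam, Vgf, Sox10, Cdh19, Nr3c1, Egr1 and Nr4a2 were named beyond this rule after their values were seen. The lists covered the tetrahydrobiopterin cycle, catecholamine breakdown and uptake, copper and ascorbate supply, chromaffin transcription factors, chromaffin input receptors and methyl donor supply. A further list held genes taken as regulators of the Pnmt and Th promoters. Marker lists covered chromaffin, cortex, Schwann, sympathetic neuron, macrophage and endothelial cells. Replicate numbers were checked for pairing: over 21 same-numbered pairs the correlation of deviations ran from -0.138 to 0.06, so they were not taken as pairs. Alternatives were the probe set of largest variance, a filter on a group mean of at least 3, median centring, further quantile normalization, trend and robust eBayes, the groups compared alone, array weights, the replicate block, each array left out, and, added after the data were seen, the chromaffin marker mean as a covariate.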

Additional observations from a re-analysis of the deposited data

Results flagged for a closer look

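Of 30 sets of 4 arrays (the 9 genes and Pnmt minus Dbh in control, day 3 and day 7), 5 held an array whose gap to its nearest neighbour exceeded Dixon's 95% critical share of the range, and chance gives about 1 in 20 such sets. Ddc was 6.65 in day 7 replicate 3, above the other 3 arrays of the group. Slc18a2 was 6.99 in the same array. Gch1 was 7.96 in day 3 replicate 2 and 7.40 in day 7 replicate 1, both the highest of their group. Pnmt minus Dbh was -1.91 in control replicate 3, the lowest of its group. Without day 7 replicate 3, Ddc at day 7 was -0.75 against withdrawal (limma adjusted p = 0.00784).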

How the results depend on the processing

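Ddc at withdrawal passed the threshold under 15 of 16 alternatives (0.48 to 0.72) and Ddc at day 7 against withdrawal under 15 of 16 (-0.75 to -0.51), the exception being the chromaffin marker covariate in both. Cyb561 at withdrawal passed under 11 of 16 (0.42 to 0.75). The count of genes called at withdrawal, 2, was 1 with the replicate block (Cyb561 0.67, adjusted p = 0.0587), 0 with the covariate, and 1 to 2 as single arrays were left out; the count at day 7 against withdrawal, 1, was 0 with the covariate. The covariate also gave the fewest calls over all genes in both of these comparisons. The block changed no other call in the gene set. Pnmt at withdrawal was -0.17 and Pnmt at day 7 against withdrawal 0.078 with the covariate. As single arrays were left out, Pnmt at day 7 against control ran from -0.38 to 0.20 and Pnmt minus Dbh from -0.32 to 0.12. The other 51 differences stayed short of the threshold under all 843 alternative values, of which 69 had the other sign, 19 of them with the covariate. Leaving out 1 array moved 41 of these 51 by over 1.5 times or turned their sign, and did so for 0 of the 3 that passed. The 3 had passed for being large beside their SE. The 51 include differences near 0, such as 0.004 for Slc6a2 at day 7 against day 3. The contrast is therefore no separate support for the 3 calls. Cyb561 at withdrawal kept its call in 4 of 7 such runs. Centring each array on its median shifted the all-gene median at withdrawal from -0.01 to -0.12 and the calls from 534 higher and 387 lower to 341 and 853; Ddc was then 0.53 and Cyb561 0.56, both past the threshold. All genes called ranged from 362 to 1251 over the alternatives at withdrawal (921 as reported), 161 to 662 at day 3 against withdrawal (483), 152 to 655 at day 7 against withdrawal (404), 4 to 91 at day 3 against control (28), 0 to 9 at day 7 against control (4) and 0 to 7 at day 7 against day 3 (0). The cause of these shifts was not tested. Groups of 3 or 4 arrays limit what differences could be resolved, and signal over background was not given.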
